A study of Mus musculus with 18 samples.

Results

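The 34 genes described here encode secretory granule proteins and other effectors of neurons and neuroendocrine cells. They were taken by name, as the rows whose gene ID carries the listed symbol in a mouse gene annotation, and all 34 were found among the 55469 gene IDs of each table. By role, 5 are granule matrix proteins (Chga, Chgb, Scg2, Scg3, Scg5), 3 belong to peptide hormone processing (Pcsk1, Pcsk2, Calca) and 7 to vesicle docking and fusion (Syp, Syt1, Syt4, Snap25, Stx1a, Rab3b, Rab3c). A further 4 are neuronal RNA-binding and chromatin proteins (Elavl3, Elavl4, Celf3, Chd5), 7 are cytoskeletal and axonal proteins (Stmn2, Stmn3, Nefl, Nefm, Gap43, Dcx, Tubb3), 5 are channels and signalling proteins (Cacna1a, Cacna1b, Nalcn, Rgs17, Dll3) and 3 are neuroendocrine markers used in pathology (Eno2, Ncam1, Uchl1).

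The data are RNA-seq libraries of total RNA from 2 prostate lobes, ventral and lateral, with 3 male mice for each of 3 genotypes at 10 weeks and at 30 weeks of age, 18 in all. The strain is labelled C56NL/6N, and every mouse, controls included, was heterozygous for TRAMP, a transgene in which the Pb (probasin) promoter drives SV40 large and small T antigens in prostate epithelium. WT-TRAMP mice had wild-type Elac2, the gene of a tRNA-processing nuclease. KO-TRAMP mice were homozygous for a conditional allele from which Pb-Cre excises exon 8 in prostate epithelium, so that stroma, nerves and vessels keep the gene, whereas A537T-TRAMP mice carried the Ala537Thr change, made with CRISPR-Cas9, on both alleles in the whole body. Mice were matched by age and litter, and seminal vesicles, bladder, urethra and fat were dissected away from the lobes. Each mutant genotype was compared with WT-TRAMP of its own age to ask how the mutation changes the transcriptome of the tumour-bearing prostate, and the 3 WT-TRAMP libraries of an age are shared by both of its comparisons. The lobes are mixed tissue, in which fewer cells of a type and less RNA per cell cannot be told apart.

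Neuroendocrine cells and neurons store peptides in dense-core granules. Chromogranins and secretogranins condense the cargo, the prohormone convertases cleave it, and Rab3 proteins, synaptotagmins and the SNARE proteins bring the granule to the plasma membrane, where calcium entering through voltage-gated channels triggers release. In the prostate these proteins mark scattered neuroendocrine cells of the epithelium, the autonomic nerve fibres of the stroma, and the neuroendocrine carcinomas that can arise in TRAMP mice.

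Promoters of these genes are shown because the cAMP response element (CRE), whose core is the pentamer TGACG, is a textbook feature of chromogranin promoters. RefSeq promoters (GRCm38.p6, 250 bases before to 50 after the start) were given for 26 of the 34 genes, and none was given for Syt4, Snap25, Stmn2, Nefl, Nefm, Gap43, Cacna1a or Ncam1. The 8 granule and processing genes are printed as 120 bases that lie upstream of the start, 5′ to 3′ on the strand of the gene, with TGACG on either strand in capitals. In Scg2 the capitals also mark GGACAGC and CAGCACC, the right and left core of RE1, the element bound by the neuronal repressor REST, both read on the opposite strand and abutting each other. Other motifs stay in lower case. The windows were shifted to hold a match, and end 1 base before the start in Chga, Scg2, Scg3 and Pcsk2, 3 bases before it in Pcsk1, 4 in Calca, 9 in Chgb and 114 in Scg5.
Chga, chr12:102554821-102554940, + strand: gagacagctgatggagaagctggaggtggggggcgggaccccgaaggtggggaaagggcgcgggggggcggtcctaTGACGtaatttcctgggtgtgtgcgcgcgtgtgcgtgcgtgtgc
Chgb, chr2:132781514-132781633, + strand: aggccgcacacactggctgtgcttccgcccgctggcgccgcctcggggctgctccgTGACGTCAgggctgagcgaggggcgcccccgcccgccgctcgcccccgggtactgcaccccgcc
Scg2, chr1:79440027-79440146, - strand: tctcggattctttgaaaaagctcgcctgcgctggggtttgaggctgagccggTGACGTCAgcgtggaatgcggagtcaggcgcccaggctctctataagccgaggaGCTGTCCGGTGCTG
Scg3, chr9:75684057-75684176, - strand: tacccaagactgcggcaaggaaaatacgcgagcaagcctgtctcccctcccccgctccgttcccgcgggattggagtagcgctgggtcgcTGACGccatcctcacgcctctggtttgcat
Scg5, chr2:113829205-113829324, - strand: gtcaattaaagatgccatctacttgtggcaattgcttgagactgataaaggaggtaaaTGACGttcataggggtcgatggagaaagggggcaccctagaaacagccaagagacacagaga
Pcsk1, chr13:75089735-75089854, + strand: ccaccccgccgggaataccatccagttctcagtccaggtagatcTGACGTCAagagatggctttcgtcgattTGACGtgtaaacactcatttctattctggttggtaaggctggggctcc
Pcsk2, chr2:143546013-143546132, + strand: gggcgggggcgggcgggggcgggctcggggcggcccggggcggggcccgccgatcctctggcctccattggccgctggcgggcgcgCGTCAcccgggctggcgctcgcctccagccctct
Calca, chr7:114636361-114636480, - strand: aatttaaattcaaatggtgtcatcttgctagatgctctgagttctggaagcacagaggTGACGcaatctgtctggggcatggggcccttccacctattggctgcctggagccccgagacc

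All 8 of these promoters held TGACG. In Chgb, Scg2 and Pcsk1 matches on both strands overlapped to form the palindromic element, and their first bases lay 72, 68 and 78 bases before the start. Among all 26 genes with a promoter, 14 held TGACG on either strand in at least 1 of their promoters (53.85%), against 23.05% of 27025 genes in the same RefSeq table. TGACG contains a CpG, and the 8 promoters were rich in that dinucleotide, with a median of 17 CpG per promoter against 7 over all 32851 promoters. Of all promoters with at least 17 CpG, 35.57% held TGACG. The other motifs searched on both strands were CAGCTG (an E-box, 13 of 26 genes against 18.29% of all), TATAAA (6 of 26 against 15.67%), CAGCACC (4 of 26 against 8.141%) and GGACAGC (2 of 26 against 7.589%). These are matches of letters in a window and say nothing of binding.

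Depth was between 9380174 and 14830104 reads per library, recovered from the deposited normalized counts. Libraries are called by the number in their column header: KO-TRAMP has 7 to 9 at 10 weeks and 16 to 18 at 30 weeks, WT-TRAMP has 1 to 3 and 10 to 12, and A537T-TRAMP has 4 to 6 and 13 to 15. The headers carry no replicate number. The targeted gene Elac2 lay between 19.5 and 31.4 rpm (reads per 1000000 reads of a library) in all 18 libraries, with overlapping groups in each comparison, so its mRNA level does not check the labels of the mice, in which 1 exon was excised or 1 residue changed. At 30 weeks each group had 1 library that stood between the other 2. Over 711 genes at least 8-fold higher in library 17 than in 16, library 18 lay a median of 39.81% of the way on the linear scale from the level in 17 to that in 16, with 99.3% of the genes between the levels of 17 and 16. Library 12 lay in the same way between 11 and 10, at a median of 43.49% of the way from 11 to 10 over 275 genes. Library 15 lay at a median of 49.28% of the way from 14 to 13 over 68 genes, with 95.59% of them between. For KO-TRAMP at 30 weeks, and its comparison between ages, medians of the 34 genes are therefore also given without libraries 12 and 18. For A537T-TRAMP at 30 weeks the median is also given without library 12, but not without library 15.

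The 34 genes together made up very different shares of the reads in different mice. At 30 weeks their summed level was 51.3 rpm, 3505 rpm and 2138 rpm in KO-TRAMP libraries 16, 17 and 18. WT-TRAMP libraries 10, 11 and 12 had 720.1, 48.8 and 334.4 rpm, and the values of A537T-TRAMP libraries 13, 14 and 15 were 136.7, 113.4 and 85.4 rpm. At 10 weeks the sum lay between 18.2 and 238.8 rpm, with the highest value in KO-TRAMP library 8. In library 17 the genes took 0.3505% of all reads, and 29 of the 34 had their highest level of all 18 libraries there. Of all 16900 genes tested in KO-TRAMP at 30 weeks, 32.4% were likewise highest in library 17. The exceptions were Dcx, Gap43 and Ncam1, highest in library 10, Stmn2 in library 8 and Calca in library 4. In library 16, 15 of the 34 genes had no read, and in library 11 this was so for 12, where 0 reads allow up to 0.267 and 0.245 rpm.

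**Figure D1:**
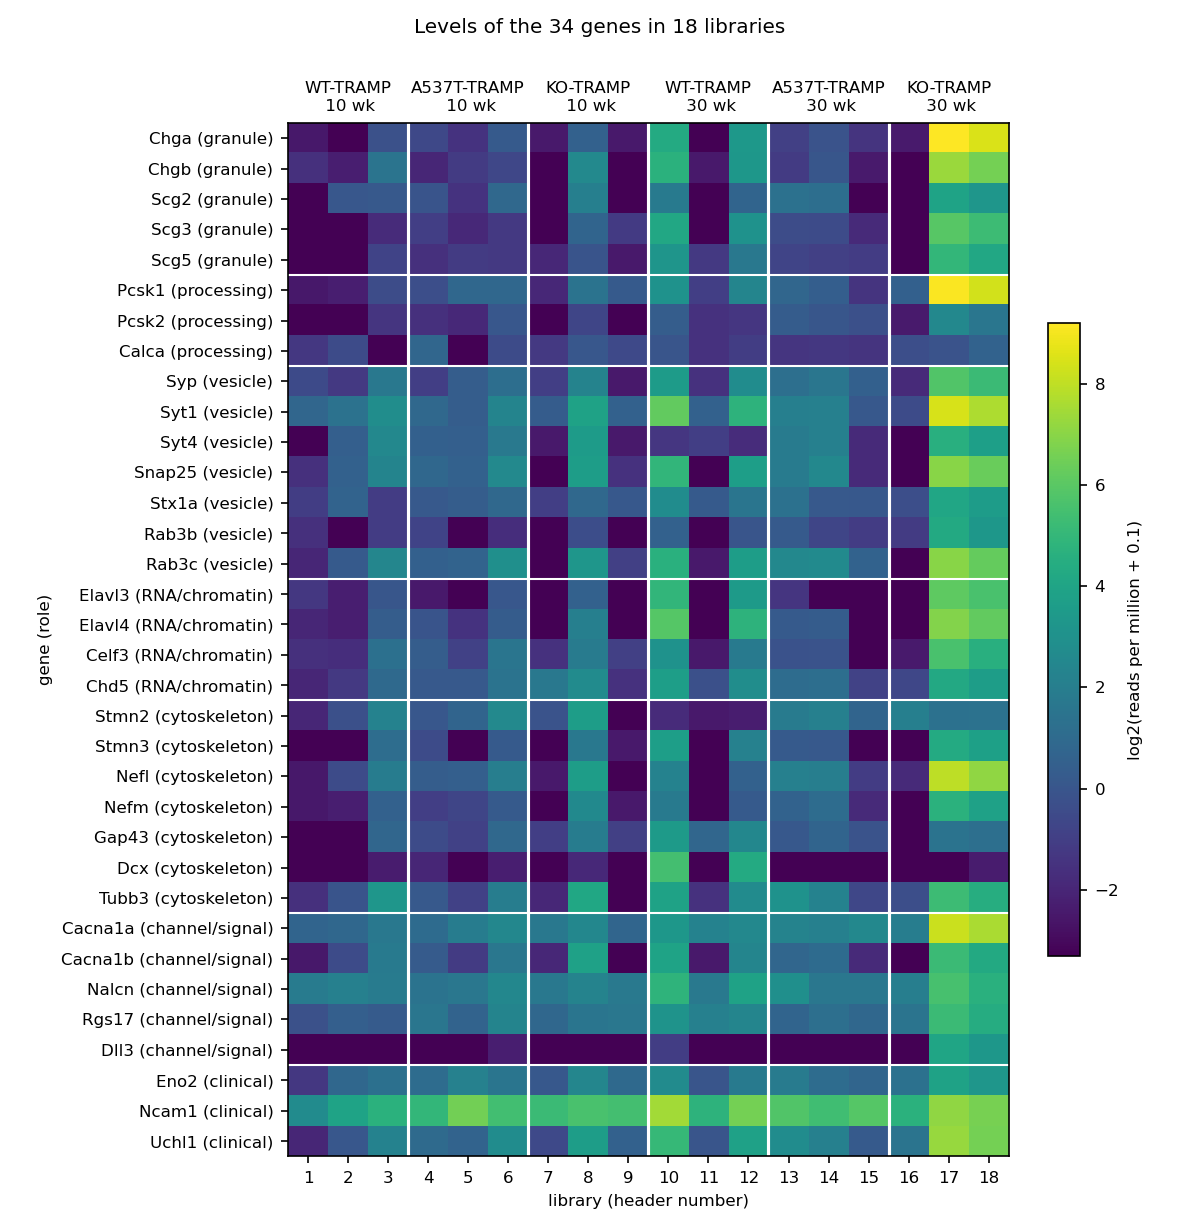
Level of each gene (rows, grouped by role) in each library (columns, by header number, grouped by genotype and age), coloured by log2(rpm + 0.1). Libraries 17 and 18 are bright for nearly every gene and libraries 10 and 12 for many of them, while libraries 11 and 16 of the same groups are dark.

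Granule matrix genes differed widely within the 30-week KO-TRAMP group, Chga most. Chga, chromogranin A, the protein measured in blood as a neuroendocrine tumour marker, stood at 0.0890, 594.5 and 368 rpm in libraries 16, 17 and 18. In WT-TRAMP it was 20.2, 0 and 10.2 rpm in libraries 10, 11 and 12, and in A537T-TRAMP 0.427, 0.834 and 0.271 rpm in libraries 13, 14 and 15. Libraries of one genotype thus lay at both ends of the range, and the KO-TRAMP and WT-TRAMP groups overlapped. Chgb, a second chromogranin, was at 0, 159.6 and 97.6 rpm in KO-TRAMP and at 25.3, 0.0818 and 10.0 rpm in WT-TRAMP. Scg2, Scg3, which helps to sort cargo into granules, and Scg5, which escorts a convertase, had their 3 highest levels of this age in the same libraries, 17, 18 and 10, with 15.6 to 62.0 rpm in library 17.

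The processing genes did not move as a block. Pcsk1, the convertase that makes the first cuts in prohormones, reached 571.7 and 328.9 rpm in libraries 17 and 18 but 1.33 rpm in library 16. WT-TRAMP libraries 10, 11 and 12 had 8.24, 0.409 and 5.11 rpm of it. Pcsk2, the second convertase, stayed at or under 5.60 rpm in all libraries. Calca, the gene of calcitonin and of the neuropeptide CGRP, never exceeded 1.66 rpm and was no higher in library 17 (0.809 rpm) than in library 10 (0.883 rpm). Its promoter is among the 8 with TGACG printed above, and a link between motif and level was not tested.

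Vesicle genes followed the granule genes. Syt1, the calcium sensor of fast release, was at 0.623, 349.8 and 205.7 rpm in libraries 16, 17 and 18 and at 72.7, 1.39 and 27.4 rpm in libraries 10, 11 and 12. Snap25, a SNARE protein of the plasma membrane, reached 126.8 rpm in library 17 and 29.9 rpm in library 10 and at this age had no read in libraries 11 and 16. Rab3c, a vesicle GTPase, Syp, a vesicle membrane protein, and Stx1a, a SNARE protein, had the same 4 highest libraries, 17, 18, 10 and 12. Syt4, a granule synaptotagmin, broke this pattern. It was high in libraries 17 and 18 (24.1 and 13.2 rpm) and in library 8 (11.6 rpm), but at 0.294 and 0.196 rpm in libraries 10 and 12. Rab3b, a second vesicle GTPase, was at 19.2 and 9.88 rpm in libraries 17 and 18 and at or under 1.37 rpm in the other 16.

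Among the neuronal RNA-binding genes, Elavl4, which stabilises neuronal mRNAs, was at 118.6 and 73.2 rpm in libraries 17 and 18 and at 60.4 and 27.4 rpm in libraries 10 and 12. At 30 weeks it had no read in libraries 11, 15 and 16. Its relative Elavl3 had the same order, from 69.3 rpm in library 17 to no read in libraries 11, 14, 15 and 16 of this age. Celf3, a splicing regulator, and Chd5, a chromatin remodeller of neurons, were also highest in libraries 17, 18 and 10. The contrast was smaller for Chd5, at 18.9, 12.6 and 12.9 rpm in these libraries, than for Celf3, at 48.7, 24.2 and 8.24 rpm. Per kilobase of exon, Elavl4 ranked 4th of the 34 genes in library 10 and 9th in library 17, where Chga (215.7 rpm per kb), Pcsk1 (102 rpm per kb) and Uchl1 (96.9 rpm per kb) ranked above all others. In library 10 the top ranks by the same measure went to Ncam1 (20.8 rpm per kb), Uchl1 (20.4 rpm per kb) and Stmn3 (11.4 rpm per kb).

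The cytoskeletal genes separated the libraries further. Dcx, doublecortin, a microtubule protein of migrating neurons, was at 43.7 and 20.2 rpm in WT-TRAMP libraries 10 and 12 and at 0 in library 11. In KO-TRAMP it had no read in libraries 16 and 17, which allows up to 0.267 and 0.202 rpm, and 0.0960 rpm in library 18. No 30-week A537T-TRAMP library had a read of it, and no 10-week library exceeded 0.172 rpm. Gap43, the growth cone protein, was also higher in libraries 10 and 12 (11.2 and 5.40 rpm) than in 17 and 18 (2.63 and 2.30 rpm). Nefl, the neurofilament light chain, had the opposite pattern, with 248.7 and 141.2 rpm in libraries 17 and 18 against 4.61 and 1.38 rpm in 10 and 12. Nefm, the medium chain, had 25.9 and 14.5 rpm in libraries 17 and 18 and 3.33 rpm in library 10. Tubb3, a tubulin of neurons, and Stmn3, a stathmin, were nearer to each other in libraries 17 and 10, at 39.1 and 15.1 rpm and at 20.3 and 12.9 rpm. Stmn2, a microtubule regulator of growing axons, stood apart from all of these and is described with the comparisons.

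Of the channel and signalling genes, Cacna1a, the pore of the P/Q-type calcium channel, was between 1.53 and 9.71 rpm in 16 libraries and at 299.2 and 197.5 rpm in libraries 17 and 18. Dll3, a Notch ligand found on neuroendocrine carcinomas and a drug target there, was at 16.7 and 9.88 rpm in libraries 17 and 18 and at or under 0.392 rpm in the other 16. Cacna1b, the pore of the N-type channel, was at 37.1, 19.6 and 15.5 rpm in libraries 17, 18 and 10 and at 14.2 rpm in library 8. Nalcn, a sodium leak channel, was less contrasted, from 2.68 to 46.6 rpm. Ncam1, the CD56 antigen, was also less contrasted at 30 weeks, at 25.7, 139 and 99.7 rpm in KO-TRAMP, 179.9, 27.6 and 96.0 rpm in WT-TRAMP, and 56.9, 41.0 and 60.5 rpm in A537T-TRAMP. Uchl1 and Eno2, a ubiquitin hydrolase and an enolase of neurons, were highest in libraries 17, 18 and 10.

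**Figure D2:**
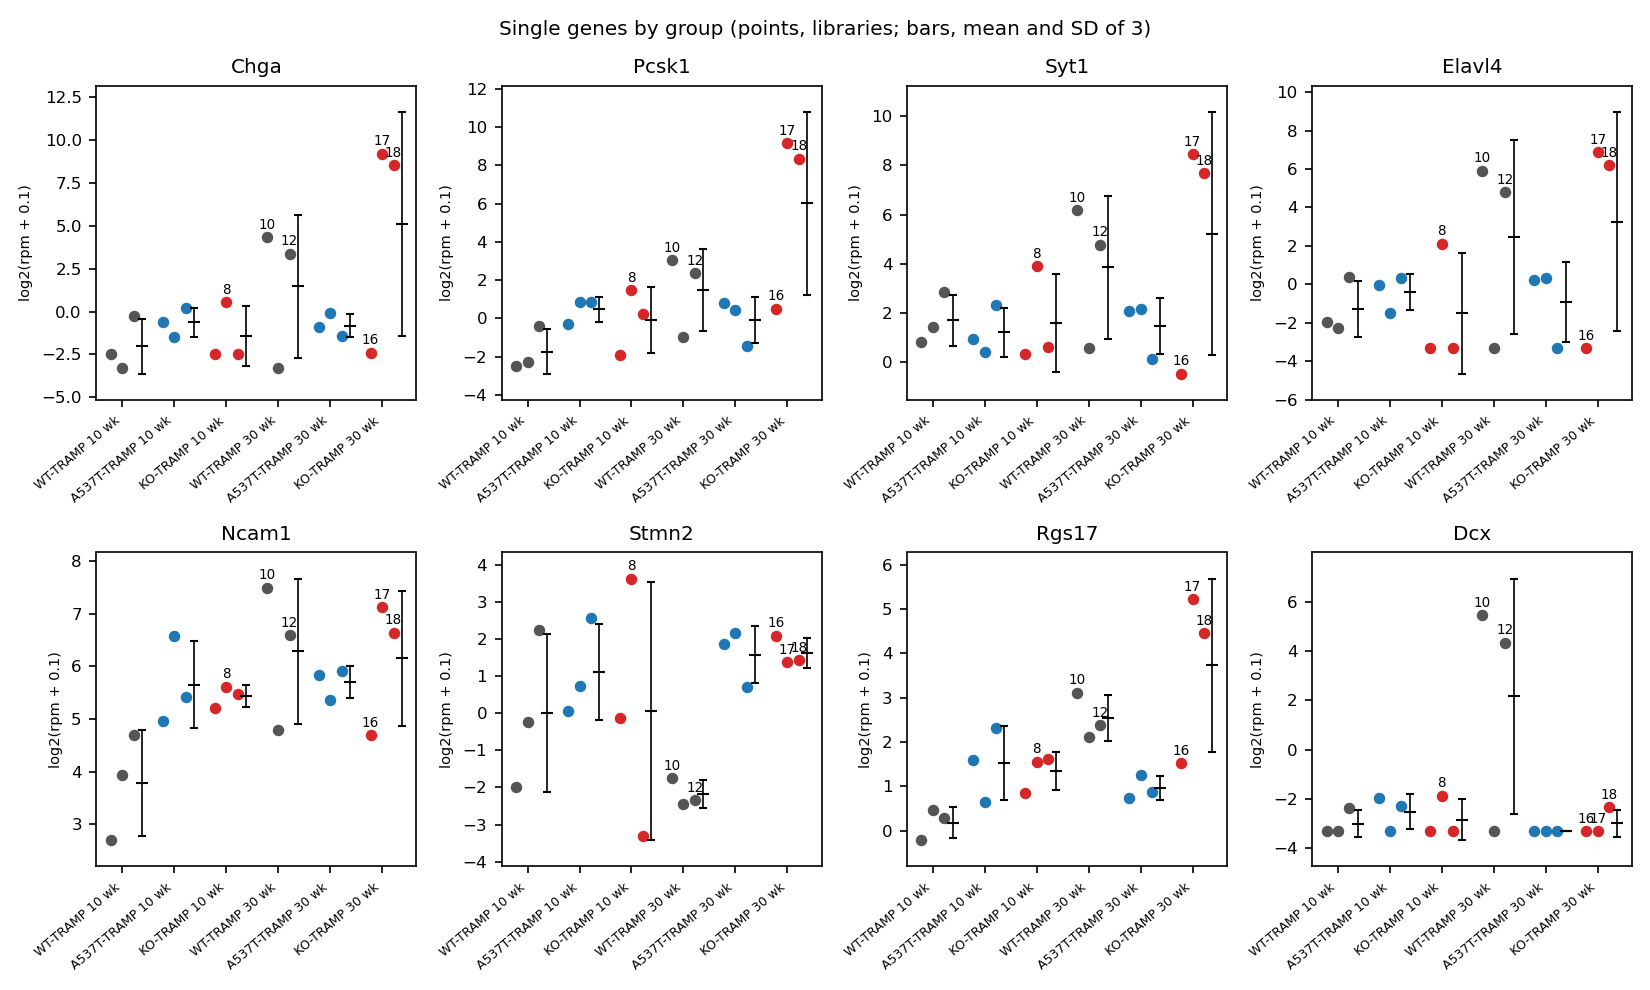
Level of 8 genes on a log2(rpm + 0.1) axis by genotype and age, with 1 point per library, the mean and SD of the 3 libraries beside them, and library numbers for 8, 10, 12, 16, 17 and 18. Chga, Pcsk1, Syt1 and Elavl4 have libraries at both ends of the range within the 30-week KO-TRAMP and WT-TRAMP groups, whereas the Stmn2 points of the 30-week mutants lie above all 3 of WT-TRAMP.

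In KO-TRAMP against WT-TRAMP at 30 weeks, no gene of the 34 passed limma's test at an adjusted p of 0.05, over the 33 that reached a mean normalized count of 10 (Calca did not). Over all 16900 genes tested 0.213% passed, which was 32 higher and 4 lower. The estimates of 30 of the 33 lay above 0 and those of 3 below, with a median log2 fold change of 1.36 against 0.01 over all genes. Without library 11 the median was -0.17, and without library 16 it was 3.9. High estimates were those of Nefl (4.59 ± 2.87 SE), Pcsk1 (4.47 ± 2.42), Dll3 (3.94 ± 2.10), Stmn2, described next, and Chga (3.63 ± 3.62). Dcx was lowest at -5.27 ± 2.35 and Gap43 stood at -2.58 ± 1.46. Standard errors of this size reflect the spread within each group of 3, and none of these genes other than Stmn2 had an adjusted p under 0.382 (limma, Benjamini-Hochberg).

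Stmn2 was the exception to that spread. Its normalized counts were 48.4, 27.0 and 28.2 in KO-TRAMP libraries 16, 17 and 18 and 2.24, 0.960 and 1.1 in WT-TRAMP libraries 10, 11 and 12. The groups did not overlap, and the level in library 16, where 15 of the 34 genes had no read, was the highest of the 6. The log2 fold change was 3.85 ± 0.561 (n = 3 against 3, limma, unadjusted p = 0.000412, adjusted p = 0.0832). It was the 1 gene of the 33 higher at an unadjusted p under 0.05, where 7.7% of all genes were, and the 1 higher without overlap, where 10.8% of all genes were. Without libraries 12 and 18 the estimate was 3.88 (adjusted p = 0.986), the median over the 33 genes was 0.849, and no gene of all those tested was called.

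The number of calls in this comparison depended on how the libraries were weighed. DESeq2 on the recovered reads called 4 genes higher (Stmn2, Cacna1a, Syt4 and Pcsk1), against 3.38% of all genes, and edgeR's quasi-likelihood test called none of the 34. Without library 16, limma called 8 higher, against 11.2% of all genes. These were Cacna1a (log2 fold change 5.16, adjusted p = 0.00529), Syt4 (5.48), Dll3 (6.32), Stmn2 (3.58), Pcsk1 (7.19), Rgs17 (2.21), Nefl (7.71) and Pcsk2 (2.85, adjusted p = 0.0496). With weights estimated per library, 23 were called higher, against 33.3% of all genes, and Dcx was called lower, against 30.3% of all genes.

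In A537T-TRAMP against WT-TRAMP at 30 weeks none of the 31 genes tested (all but Pcsk2, Calca and Dll3) passed at an adjusted p of 0.05, and neither did any of the 16261 genes tested (0%). Here 25 of the 31 estimates lay below 0 and 6 above, with a median log2 fold change of -1.40 against 0.00 over all genes. Without library 11 the median was -2.72, and without library 10 it was -0.361. The RNA-binding and chromatin genes had the lowest median of the 7 roles, at -2.66. In this group were Elavl3 (-4.42 ± 2.08 SE) and Elavl4 (-3.32 ± 2.41), the latter at 1.07, 1.15 and 0 rpm in libraries 13, 14 and 15. Dcx had a mean of 208 normalized counts in WT-TRAMP and no read in any A537T-TRAMP library, so with 3 reads per library as the floor its mean was at least 69.2-fold lower. With Dcx at this bound the median over the 31 genes was still -1.4. WT-TRAMP library 11 had no Dcx read either, so the groups overlapped.

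Stmn2 was again higher without overlap. Its normalized counts were 41.0, 50.1 and 16.9 in libraries 13, 14 and 15 of A537T-TRAMP, compared with 2.11, 0.897 and 1.07 in WT-TRAMP, the same 3 libraries as in the KO-TRAMP comparison. The log2 fold change was 3.87 ± 0.632 (n = 3 against 3, limma, unadjusted p = 0.000429, adjusted p = 0.235). It was the 1 gene of the 31 higher at an unadjusted p under 0.05 (3.98% of all genes) and the 1 higher without overlap (7.36% of all genes). DESeq2 also called it (log2 fold change 4.74, adjusted p = 0.00053) and no other of the 34 genes, with 0.523% of all genes called higher. edgeR called none of them. At 10 weeks Stmn2 did not separate the groups. It was at 0.153, 0.746 and 4.69 rpm in WT-TRAMP, 0.947, 1.56 and 5.82 rpm in A537T-TRAMP and 0.816, 12.3 and 0 rpm in KO-TRAMP, and WT-TRAMP library 3 was above every mutant library of 30 weeks. The log2 fold changes at that age were -0.03 ± 1.76 in KO-TRAMP and 0.92 ± 1.12 in A537T-TRAMP (limma, adjusted p = 0.999 and 0.787).

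Some markers of nerve were also higher in A537T-TRAMP at 30 weeks, although the sums of the groups overlapped. The summed level of 10 autonomic neuron markers was 11.6, 15.2 and 2.62 rpm in libraries 13, 14 and 15 of A537T-TRAMP, compared with 3.33, 1.55 and 3.54 rpm in WT-TRAMP libraries 10, 11 and 12, where, named after their values were seen, Chat and Slc18a3, which define cholinergic neurons, had no read in any of the 3. Of these 10 markers, 3 were higher in A537T-TRAMP without overlap, and of 9 Schwann cell markers, whose sum was 83.2 to 105 rpm against 71.3 to 93.0 rpm, 2 were. Over all genes tested the share was 7.36%, and some of these markers were too low to test. Chosen after their values were seen, the neuropeptides Vip and Npy had log2 fold changes of 4.36 and 3.75 (limma, adjusted p = 0.566 and 0.576). In KO-TRAMP the picture differed. The autonomic sum was 0.712, 5.19 and 3.36 rpm in libraries 16, 17 and 18, and 7 of the 10 markers had no read in library 16, which held the highest Stmn2 level of its comparison. Schwann markers summed to 91.4 to 122.7 rpm there. The part of nerve in the Stmn2 difference was not tested. Leukocyte and skeletal muscle markers also separated KO-TRAMP from WT-TRAMP at 30 weeks in part. Over all genes tested in that comparison, 10.8% were higher without overlap and 0.213% were called in either direction. The sum of 4 leukocyte markers was 172.8, 113.4 and 142.7 rpm in libraries 16, 17 and 18 against 70.8 to 93.2 rpm in WT-TRAMP, with 2 of the 4 higher without overlap and none called. Of 5 skeletal muscle markers, 3 were higher without overlap and 2 myosin heavy chains were called, Myh1 (2.68, limma, adjusted p = 0.0401) and Myh4 (6.03, adjusted p = 0.045), with sums of 43.2 to 85.2 rpm against 29.6 to 50.8 rpm. Their part in the Stmn2 difference was not tested either.

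**Figure D3:**
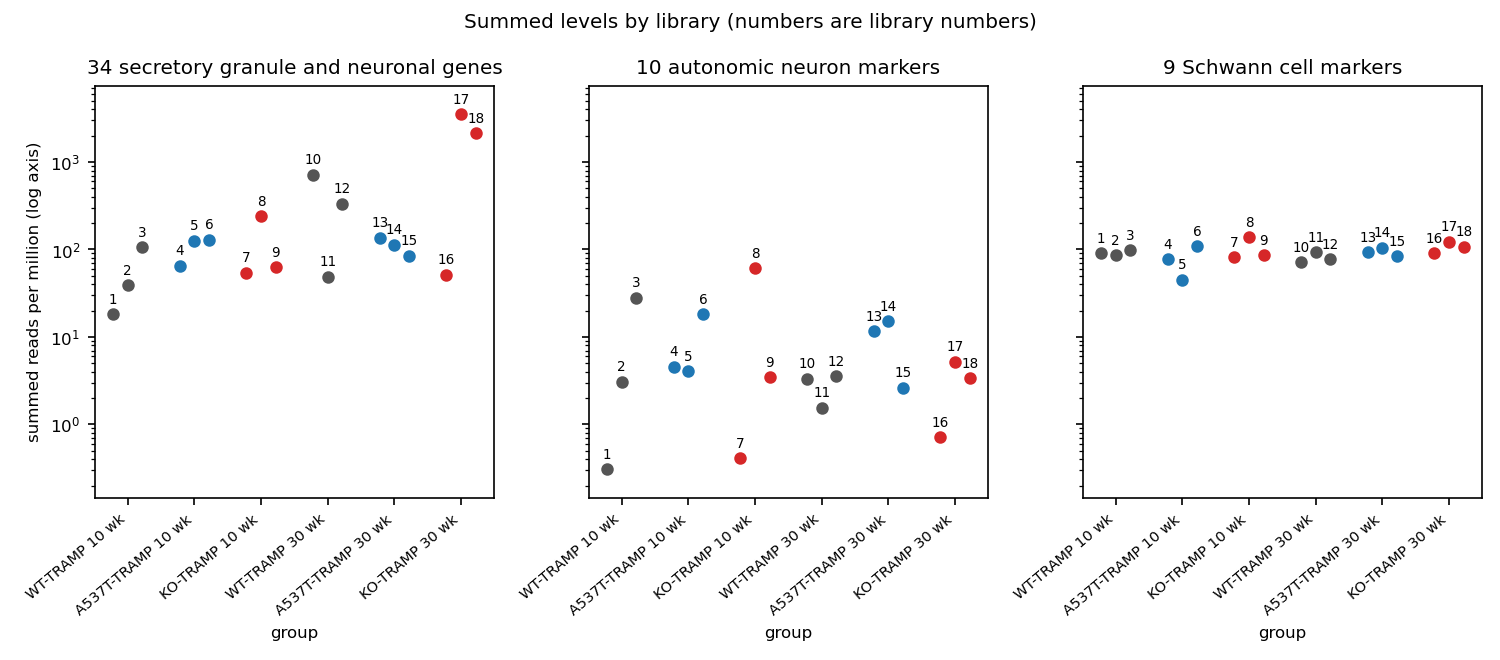
Summed level (rpm, log axis) of the 34 genes, of 10 autonomic neuron markers and of 9 Schwann cell markers in each library, by genotype and age, with library numbers. The 34 genes are highest in libraries 17 and 18, whereas the autonomic markers are highest in libraries 8, 3 and 6 of 10 weeks and the Schwann markers differ little.

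Besides Stmn2, 3 of the 31 genes were lower in A537T-TRAMP at 30 weeks at an unadjusted p under 0.05, where 3.23% of all genes were. Rgs17, a regulator of G protein signalling, had 44.8 to 89.6 normalized counts in WT-TRAMP and 18, 26.2 and 18.9 in A537T-TRAMP, a log2 fold change of -1.49 ± 0.336 (limma, unadjusted p = 0.00281, adjusted p = 0.436). Gap43 had 125.4, 18.8 and 60.8 against 11.5, 17.9 and 8.97 normalized counts, a log2 fold change of -2.01 (adjusted p = 0.666). Dcx was the other (adjusted p = 0.684). Rgs17 and Gap43 were the 2 tested genes lower without overlap, where 6.03% of all genes were. Calca, too low to test, was at 2.99 to 3.58 against 3.59 to 10.5 normalized counts. It had 4, 3 and 3 reads in libraries 13, 14 and 15. WT-TRAMP library 11 had 3 reads of it as recovered from the KO-TRAMP comparison, so no separation can be given. Without library 12 none was called and the median was -1.02.

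Here too the weight of a library decided the calls. Without library 11, limma called Dcx, Chga (-4.71), Elavl3 (-6.97) and Scg3 (-4.33) lower, against 0.816% of all genes. With weights per library 18 were called lower, against 10.5% of all genes, and Stmn2 was called higher, against 10.3%. Library 11 is the WT-TRAMP library in which 12 of the 34 genes had no read.

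**Figure D4:**
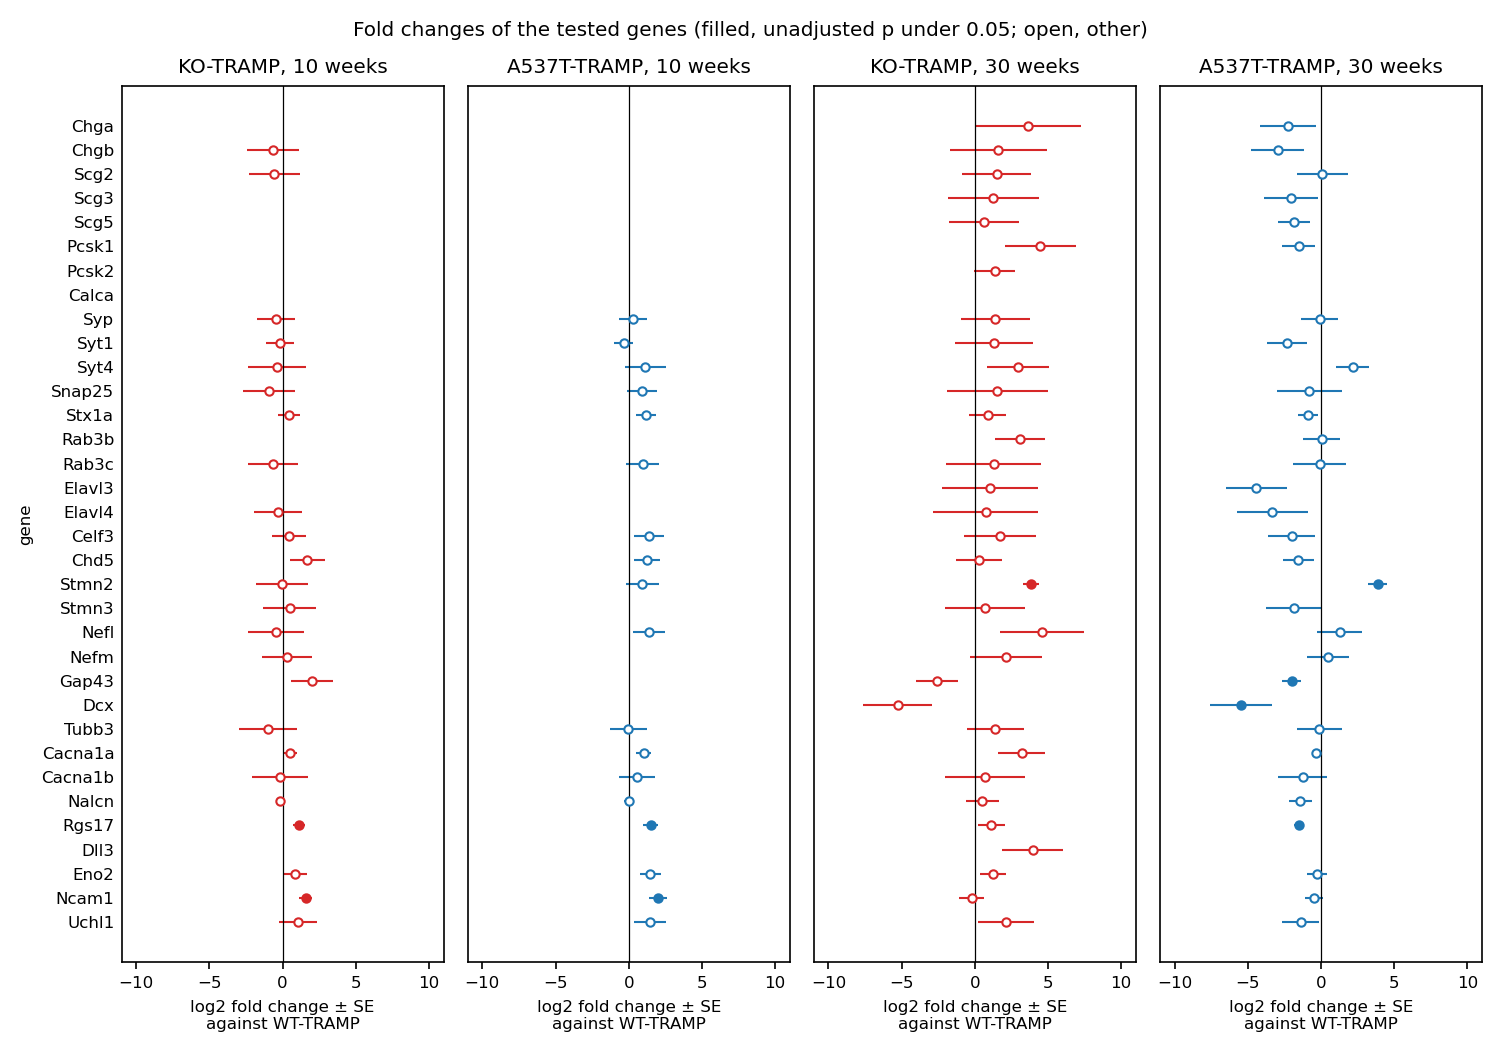
Log2 fold change against WT-TRAMP with its SE for each tested gene in the 4 comparisons (limma, log2(normalized count + 1)), with filled points for an unadjusted p under 0.05 and open points for others. At 30 weeks most estimates lie above 0 in KO-TRAMP and below 0 in A537T-TRAMP with wide errors, and Stmn2 has a narrow error and lies near 3.9 in both.

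At 10 weeks the genes were low, and 24 of the 34 could be tested in KO-TRAMP and 18 in A537T-TRAMP. None passed at an adjusted p of 0.05 in either, where 0.0129% and 0.00648% of all genes did (limma). In KO-TRAMP 11 estimates lay above 0 and 13 below, with a median of -0.09, whereas with DESeq2 23 lay above and 1 below, with a median of 0.924, so no direction can be given. In A537T-TRAMP 16 lay above and 2 below, with a median of 1.08, which was 0.168 without library 1 and 1.93 without library 3, and DESeq2 gave 14 above and 4 below with a median of 0.55. Among the 9 libraries of this age, 28 of the 34 genes were highest in KO-TRAMP library 8, against 13.6% of all 15451 genes tested. That library also had the highest autonomic sum of all 18 (60.9 rpm) and the highest Schwann sum (137.5 rpm), and the part of nerve in its values was not tested. Without library 8 the KO-TRAMP median was -1.32, and without library 9 it was 0.84.

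Ncam1 and Rgs17 were higher without overlap in both mutants at 10 weeks, compared with the same WT-TRAMP libraries. For Ncam1 the normalized counts were 408.2, 557.2 and 493.2 in KO-TRAMP against 73.4, 178.7 and 305.0 in WT-TRAMP, a log2 fold change of 1.60 ± 0.445 (limma, unadjusted p = 0.00713, adjusted p = 0.711). In the A537T-TRAMP table they were 322.3, 1211 and 459.8 against 65.1, 157.8 and 268.7, a log2 fold change of 2.00 ± 0.622 (unadjusted p = 0.0141, adjusted p = 0.6). Rgs17 had 18.9, 32.3 and 33.1 against 8.74, 15 and 13.2 in KO-TRAMP, a log2 fold change of 1.12 ± 0.401 (adjusted p = 0.716). In A537T-TRAMP it had 30.1, 18.8 and 52.7 against 7.23, 13.8 and 11.1, a log2 fold change of 1.5 ± 0.5 (adjusted p = 0.6). These 2 genes were the members higher at an unadjusted p under 0.05, against 3.71% of all genes in the former mutant and 5.07% in the latter. They were also the tested members higher without overlap, against 5.77% and 6.92%. Scg3 and Pcsk1, too low to test, were higher without overlap in A537T-TRAMP, at 2.21 to 4.07 against 0 to 2.02 and at 7.32 to 22.1 against 0.803 to 5.05 normalized counts. For Scg3 this rests on 5, 2 and 3 reads against 0, 0 and 2, and in rpm the groups overlapped. No share over all genes was computed for genes too low to test. DESeq2 called Ncam1 in A537T-TRAMP (log2 fold change 2.03, adjusted p = 0.0435), where 0.9% of all genes were called higher, and no member in KO-TRAMP. edgeR called no member in either.

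Markers of other tissue moved with these genes at 10 weeks. The summed level of 6 smooth muscle markers was 383.4 to 629.1 rpm in WT-TRAMP, 713.5 to 1091 rpm in KO-TRAMP and 959.3 to 2127 rpm in A537T-TRAMP, and none was at 0 throughout a group. All 6 were higher in A537T-TRAMP without overlap, against 6.92% of all genes, and 3 in KO-TRAMP, against 5.77%. The sum of 8 seminal vesicle markers was 1.83 to 4.59 rpm in WT-TRAMP, where Svs3a, named after its values were seen, had no read, 9.06 to 16280 rpm in KO-TRAMP and 487.4 to 90510 rpm in A537T-TRAMP. All 8 were higher without overlap in A537T-TRAMP and 4 in KO-TRAMP, against the same shares of all genes. A537T-TRAMP library 5, with the highest seminal vesicle and smooth muscle sums of this age, also had the highest Ncam1 level (94.8 rpm). The part of these tissues in the Ncam1 and Rgs17 differences was not tested.

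The effect of each mutant was then compared between the ages. For KO-TRAMP none of the 33 genes tested passed as an interaction over 12 libraries, none had an unadjusted p under 0.05, and 0% of all 16431 genes were called. The median was 1.46, with 27 estimates above 0 and 6 below, and without libraries 12 and 18 it was 0.985, with 23 above and 9 below. Without library 11 it was -0.188. For A537T-TRAMP none of 30 passed (0% of 15941 genes), while 6 had a lower effect at 30 than at 10 weeks at an unadjusted p under 0.05, where 3.7% of all genes did. These were Pcsk1 (-3.96), Gap43 (-3.92), Dcx (-5.96), Cacna1a (-1.35), Rgs17 (-2.99 ± 0.593) and Ncam1 (-2.49), all with an adjusted p of 0.721 (limma). In the same interaction all 6 smooth muscle markers had estimates below 0, 5 of them at an unadjusted p under 0.05, with a median of -1.53, and all 8 seminal vesicle markers were below 0 with a median of -9.01. Their part in these differences was not tested. Only limma was run on the interactions. Without library 16, Cacna1a and Dll3 were called in KO-TRAMP, and without library 11 Dcx was called in A537T-TRAMP.

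Other genes of the pathway were counted by list. Of 17 further granule genes 15 were tested in KO-TRAMP at 30 weeks, of 21 vesicle genes 20, of 15 neuropeptides 4, of 16 cytoskeletal genes 16, of 13 channel genes 13 and of 9 regulators of transcription or splicing linked to neuroendocrine cells 8. None of these genes was called in either direction in any of the 4 comparisons or both interactions. In KO-TRAMP at 30 weeks 1 granule gene, 1 neuropeptide and 1 channel gene were higher at an unadjusted p under 0.05, where 7.7% of all genes were, and 1 granule, 1 vesicle and 1 cytoskeletal gene were lower, where 5.84% of all genes were. Of the 17 granule genes 11 were highest of all 18 libraries in library 17, of the 21 vesicle genes 15, of the 15 neuropeptides 3, of the 16 cytoskeletal genes 9, of the 13 channel genes 9 and of the 9 regulators 6.

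The most abundant of these genes varied less than the 34. Cadps2 and Pam, a granule priming factor and the enzyme that amidates peptides, had log2 fold changes of 0.09 ± 0.118 and 0.23 ± 0.185 in KO-TRAMP at 30 weeks, and Pam lay between 58.99 and 214.9 rpm in all libraries. Unc13b and Rab3d, vesicle proteins of many secretory tissues, were lower in library 17 (154 and 143.8 rpm) than in library 16 (329 and 231.4 rpm). Cplx2, a complexin of neurons, was at 222.8 rpm in library 17, 23.1 rpm in library 10 and 2.94 rpm in library 16. Among the neuropeptides Penk, the enkephalin precursor, was higher without overlap in KO-TRAMP (51.2, 14.5 and 29.9 rpm against 11.8, 12.0 and 10.2 rpm, log2 fold change 1.24 ± 0.464, limma adjusted p = 0.359), with its highest level in library 16. Adcyap1, the precursor of PACAP, had reads at 30 weeks in libraries 17 and 18 (5.60 and 4.70 rpm) and in 13 and 14 (0.214 and 0.104 rpm).

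Several of the regulators linked to neuroendocrine cells differed between libraries as the effectors did. Insm1, a factor of endocrine differentiation, was at 185.9 and 109.9 rpm in libraries 17 and 18 and at 17.8 and 9.72 rpm in libraries 10 and 12. Hes6 was at 262.8 and 159.3 rpm in libraries 17 and 18 and between 6.57 and 16.4 rpm in all others. Rest, the repressor of neuronal genes, was lowest in library 17 (40.5 rpm) and lay between 58.1 and 97.6 rpm in the others. Chosen after their values were seen, Foxa2 was at 104.5 and 63.0 rpm in libraries 17 and 18 and at 0.588 rpm or less elsewhere. Pou3f2, a neuronal factor, had the pattern of Dcx, with 36.8 and 12.1 rpm in libraries 10 and 12, no read in library 17 and 0.0960 rpm in library 18. Neurod1, also chosen so, had no read in any library.

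Markers of other cells and of proliferation moved with the 34 genes as well. The summed level of 10 proliferation markers was 3093 and 2108 rpm in libraries 17 and 18 against 775.2 rpm in library 16, and all 10 were highest in library 17. The 6 smooth muscle markers, with sums of 3328 and 2283 rpm in libraries 17 and 18 against 628.4 rpm in library 16 and 1231 to 2156 rpm in WT-TRAMP, were all highest in library 17 too. The sum of 4 basal cell markers was 214.9 and 149.8 rpm in libraries 17 and 18 and 25.95 to 36.97 rpm in the other 7 libraries of this age. Of these 4, 2 were highest in library 17 over all libraries. Krt14 went the other way and was lower in KO-TRAMP without overlap (log2 fold change -1.33 ± 0.475, limma, adjusted p = 0.355). Pbsn, chosen after its values were seen, the gene whose promoter drives both the transgene and the Cre, was lowest in library 17 at 3.91 rpm and next lowest in library 18 at 7.96 rpm. The whole list of 10 luminal markers summed to 2517 to 2571 rpm in KO-TRAMP, 2316 to 2871 rpm in WT-TRAMP and 2712 to 2899 rpm in A537T-TRAMP at 30 weeks, with none at 0 in a whole group. The part of these differences in the values of the 34 genes was not tested.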

How the data were processed

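The authors trimmed reads with Trim Galore 0.4.1 and cutadapt 1.18, aligned them with STAR 2.7.3a to GRCm38.p6 and quantified genes with Salmon, per the labels' processing notes and the study's methods. The authors deposited 4 tables of normalized counts, a signal in which whole reads are scaled by a library's size factor, computed within its table of 6 libraries. All values were whole multiples of 1 step (100% within 0.01 reads), so reads could be recovered. Columns found in both tables of an age were taken as WT-TRAMP. Values in rpm set libraries of different tables side by side (WT-TRAMP from the KO-TRAMP table). The authors' own comparisons (fold changes and s-values) were not used.

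Each comparison used limma 3.58.1 (lmFit, eBayes with trend, R 4.3.3) on log2(normalized count + 1), a scale that understates changes of low genes, over genes with a mean of at least 10, two-sided, with Benjamini-Hochberg adjustment over all genes and a threshold of 0.05. Interactions had an intercept per table. Alternatives were other pseudocounts, no filter, TMM scaling, array weights, DESeq2 1.42.0, edgeR 4.0.16 and leaving out libraries. The test was tested on simulated counts with 1 fixed dispersion for all genes, which does not show how it does on genes as variable as the 34. The 34 genes, the lists and the tests were chosen with earlier results of these data known. All 34 genes are named, and from each other list the genes called or the 4 most abundant in the 30-week KO-TRAMP table. Where others are named, the text says so. Some genes of these lists are not reported here. Replicates are separate mice per the labels.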

Additional observations from a re-analysis of the deposited data

Results flagged for a closer look

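The effect of A537T-TRAMP on Rgs17 had opposite directions at the 2 ages. At 10 weeks each of the 3 A537T-TRAMP libraries was above each WT-TRAMP library, and at 30 weeks each was below. The difference between the log2 fold changes, 30 minus 10 weeks, was -2.99 ± 0.593 (limma interaction over 12 libraries, unadjusted p = 0.000346, adjusted p = 0.721), so it failed the correction over 15941 genes. Leaving out 1 library at a time gave -3.34 to -2.62. The 6 smooth muscle markers had a median of -1.53 in the same interaction, and the 8 seminal vesicle markers a median of -9.01, and their part in the Rgs17 values was not tested.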

How the results depend on the processing

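No paired analysis was possible because the column headers carry no replicate numbers. With 3 libraries a group, the spread between libraries limits every comparison of the 34 genes, and genes under a mean of 10 could not be tested. Array weights did not fully converge in some fits.

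At 10 weeks the count of all genes called in KO-TRAMP was 2 and became 81 with DESeq2, 0 with edgeR and 1 to 9 when 1 library was left out. In A537T-TRAMP it was 1 and became 0 with a pseudocount of 0.5, 4 with array weights, 148 with DESeq2, 0 with edgeR and 0 to 65 when 1 was left out, and DESeq2 called 1 of the 34 genes higher. In KO-TRAMP at 30 weeks it was 36 and became 10748 with array weights, 805 with DESeq2, 15 with edgeR, 0 without libraries 12 and 18 (an alternative chosen after seeing the data) and 0 to 3064 when 1 was left out. Of the 34 genes 23 were called higher and 1 lower with array weights, 4 higher with DESeq2, and 0 to 8 higher when 1 library was left out. For A537T-TRAMP of 30 weeks the count of 0 became 3388 with array weights, 165 with DESeq2 and 0 to 145 when 1 was left out. Of the 34 genes 1 was called higher and 18 lower with array weights, 1 higher with DESeq2, and 0 to 4 lower when 1 was left out. For the KO-TRAMP interaction 1 gene was called with a pseudocount of 10 and 1 without the filter, and 0 to 1944 genes and 0 to 2 of the 34 when 1 was left out. For the A537T-TRAMP interaction it was 0 to 20 genes and 0 to 1 of the 34. Library 16, left out, gave the highest counts in KO-TRAMP at 30 weeks, and library 11 in A537T-TRAMP. The cause was not tested.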

Other observations

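Nefh and Unc79, from the lists of cytoskeletal and channel genes, had a different order of libraries from the 34 genes. Nefh, the neurofilament heavy chain, chosen after its values were seen, was at 139.5 rpm in library 13, 90.0 rpm in library 5, 50.5 rpm in library 15, 34.9 rpm in library 10 and 29.0 rpm in library 17. Unc79, a subunit of the Nalcn channel complex, was at 73.6 rpm in library 5, 69.1 rpm in library 10, 45.7 rpm in library 17 and 43.2 rpm in library 13, and at or under 0.107 rpm in libraries 1, 2, 7, 11 and 16. Seminal vesicle markers summed to 90510 rpm in library 5, 54490 rpm in library 13 and 43540 rpm in library 10, but to 6.95 rpm in library 17. The neurofilament light chain Nefl was at 1.30 and 4.27 rpm in libraries 5 and 13, so the chains did not share their highest libraries.

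Stmn4, another stathmin, chosen after its values were seen, was at 4.51 and 4.12 rpm in libraries 10 and 12 and had no read in libraries 16, 17 and 18. Its log2 fold change in KO-TRAMP at 30 weeks was -4.43 ± 1.22 (limma, adjusted p = 0.324), opposite in sign to that of Stmn2.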
